A study of Mus musculus with 6 samples.

Results

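The miR-130 and miR-301 family was measured with 4 assays, those for mmu-miR-130a, mmu-miR-130b, mmu-miR-301a and mmu-miR-301b, in 6 samples of mouse monocytes. The members were chosen by assay name, without opposite-strand assays (marked #), and are 4 of the 750 miRNA assays of the array. All 4 are on card A, 1 of the 2 cards, which holds 375 miRNA assays.

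Members of a miRNA family share the seed, the stretch near the 5′ end that pairs with messenger RNAs, so they can repress overlapping sets of transcripts. miR-130 is known to repress Pparg, a nuclear receptor of adipocytes and macrophages. miR-301a is known to raise NF-κB activity by repressing Nkrf, an inhibitor of that pathway.

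Monocytes of 3 DBA/1 mice were freshly isolated, and each mouse gave 1 sample of Ly6C high monocytes, the classical subset, and 1 of Ly6C low monocytes, the non-classical subset, so that 3 samples per subset are paired by mouse. Samples are named by subset and mouse, as Ly6C high mouse 1. Age and sex are not given in the sources used here, and no treatment is named in the labels. The assays were run on TaqMan low-density arrays from 10 ng of RNA per sample. Each assay returns a threshold cycle (Ct), and a Ct later by 1 cycle stands for 1 log2 unit less template. A reaction without signal is listed at a Ct of 40, and an assay counts as detected here when its Ct is under 35. Expression is given as −ΔCt, the Ct of U6 small nuclear RNA on the same card minus the Ct of the miRNA, in log2 units that increase with the amount of miRNA relative to U6. Detection in 3 or more of the 6 samples admitted 201 miRNA assays to the test between the subsets, and all 4 members were among them.

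The mature sequences below show what the assays have to tell apart. They are RefSeq's for GRCm38.p6, 5′ to 3′, where 3 of the 4 members were matched by name and miR-301b was not. miR-721 is added because it has the same seed and an assay on card B. Capitals mark the seed, bases 2 to 8.
miR-130a-3p: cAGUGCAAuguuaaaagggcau
miR-130b-3p: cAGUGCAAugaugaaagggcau
miR-301a-3p: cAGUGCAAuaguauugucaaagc
miR-721: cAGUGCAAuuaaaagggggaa
The 4 sequences have the first 9 bases in common. The seed AGUGCAA occurs in 7 of the 1679 mature mouse miRNA names of that table (0.417%), which do not include miR-301b. miR-130a and miR-130b are identical at 20 of 22 positions and differ by U11A and A13G, with the base of miR-130a given first and positions counted from 1 at the 5′ end. miR-301a is identical to miR-130a at 12 of the 22 positions compared, all the differences lying after base 9. miR-301b could not be compared with miR-301a by sequence here. How far each assay also amplifies a near-identical relative was not tested.

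In the RefSeq annotation of GRCm38.p6, Mir130b and Mir301b are neighbours inside the gene 2610318N02Rik, and each is the other's nearest annotated miRNA gene. Mir301, which encodes miR-301a, lies within Ska2, and Mir721 within Cux1. Mir130a lies within no annotated gene. The 4 members therefore come from 3 loci, and miR-130b and miR-301b are not counted as independent of each other.

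The labelled cell type was checked against miRNAs known to be abundant in myeloid and other blood cells, miR-223, miR-142-3p and miR-142-5p. All 3 were detected in 5 of the 6 samples, and 0 of the 3 in Ly6C high mouse 1, where each is listed at a Ct of 40. Their summed expression relative to U6 was −15.75, 3.03 and 3.90 (log2) in the Ly6C high samples from mice 1, 2 and 3 and 1.42, 2.39 and 3.14 in the Ly6C low samples. miR-223 gave the strongest signal of the 3 in each of the 5 samples. Rank correlations of Ct over the 127 tested card A assays were 0.10 to 0.15 between Ly6C high mouse 1 and each of the other samples, and 0.73 to 0.94 among the latter. These correlations are across assays, which are not independent replicates. Card A of this sample thus goes against the label, the reason was not tested, and the comparisons of the family between the subsets are given with and without it. Card A had 109, 112 and 129 detected miRNA assays in the Ly6C high samples from mice 1, 2 and 3 and 127, 146 and 115 in the Ly6C low samples, and 89.9% to 96.3% of their Ct values were no more than 0.05 cycles from a whole number. Most differences thus come in steps near 1 cycle.

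miR-301a and miR-301b were the members with the strongest signal in Ly6C high monocytes of mice 2 and 3, and in those mice Ly6C high monocytes held more of both than Ly6C low monocytes relative to U6, whereas without normalization these differences were negative in mouse 2. miR-130a and miR-130b were higher relative to U6 in the Ly6C high sample of 3 of 3 mice, as were 10.6% of 142 assays. In mice 2 and 3 alone, 4 of 4 members were higher in both, as were 38.5% of 148 assays. miR-130a in mouse 3 (0.83) and miR-130b in mouse 1 (0.81) were near the median of the card A assays (0.83 and 0.86). Without normalization miR-130b was lower in mice 1 and 2, and miR-130a was level in mouse 2 (0.030). The adjusted p of limma, a linear model fitted to all tested assays, was over 0.9 for each of the 4 members.

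miR-130a had the weakest signal of the members in the 5 samples other than Ly6C high mouse 1. Its Ct was 30.98, 31.98 and 31.98 in the Ly6C high samples from mice 1, 2 and 3 and 32.03, 32.01 and 33.96 in the Ly6C low samples. Relative to U6, its expression was −8.31, −7.33 and −11.20 (log2) in Ly6C high and −12.22, −11.25 and −12.04 in Ly6C low monocytes. The Ly6C high values all lay above the Ly6C low values, but that of mouse 3 exceeded the highest Ly6C low value by only 0.049, and the raw Ct values were separated by only 0.030 cycles. Means were −8.95 ± 2.01 (SD, n = 3) and −11.84 ± 0.52 (SD, n = 3), which differed by 2.89 (log2, standard error 1.65, limma adjusted p = 0.985). A 2-sided exact permutation test gave p = 0.1, and 3 samples against 3 cannot give a smaller one. The permutation tests of this report exchange samples across mice and so do not use the pairing. Without Ly6C high mouse 1 the means differed by 2.57 (standard error 1.46, limma adjusted p = 0.965), with a permutation p of 0.2, the smallest that 2 samples against 3 allow. Here and below, fewer cells holding a miRNA and less of it per cell cannot be told apart in bulk samples.

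miR-130b, the neighbour of miR-301b, was detected in all 6 samples. Its Ct was 30.02, 30.98 and 27.97 in the Ly6C high and 27.97, 28.97 and 30.98 in the Ly6C low samples. The raw values of the subsets overlapped. Relative to U6, expression was −7.35, −6.33 and −7.20 in Ly6C high and −8.16, −8.21 and −9.06 in Ly6C low monocytes. On this scale the subsets did not overlap, and the lowest Ly6C high value was 0.81 above the highest Ly6C low value (2-sided exact permutation test, p = 0.1, and 0.2 without Ly6C high mouse 1). The subset means differed by 1.52 (log2, standard error 1.38, limma adjusted p = 0.985), which became 1.72 (standard error 0.85, limma adjusted p = 0.965) without Ly6C high mouse 1. With raw Ct values the direction turned, to −0.35 with all samples (2-sided exact permutation test, p = 0.7) and −0.17 without that sample.

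miR-301a was undetected in Ly6C high mouse 1, so its value of −17.34 there is that of the listed Ct of 40. Its Ct was 29.97 and 25.97 in the Ly6C high samples from mice 2 and 3 and 27.99, 27.97 and 29.97 in the Ly6C low samples. Relative to U6, its expression was −5.31 and −5.20 in the Ly6C high samples from mice 2 and 3 and −8.19, −7.21 and −8.05 in the Ly6C low samples. Both detected Ly6C high values lay at least 1.90 above every Ly6C low value. With all samples the log2 difference was −1.47 (standard error 3.57, limma adjusted p = 0.985), less than the SD of the Ly6C high values (6.98). Without the undetected sample it was 2.56 (standard error 0.82, limma adjusted p = 0.965), from −5.25 ± 0.08 (SD, n = 2) against −7.81 ± 0.53 (SD, n = 3), with a 2-sided exact permutation p of 0.2. By raw Ct the subsets overlapped in these samples, and the difference was 0.67.

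miR-301b gave nearly the same values as miR-301a in 4 of the 5 samples in which both were detected. It too was undetected in Ly6C high mouse 1, and relative to U6 its expression was −5.31 and −5.18 in the Ly6C high samples from mice 2 and 3 and −9.17, −7.20 and −8.04 in the Ly6C low samples. The Ly6C low sample of mouse 1 was the lowest, and the detected Ly6C high values lay at least 1.89 above every Ly6C low value. The log2 difference was −1.14 (standard error 3.59, limma adjusted p = 0.985) with all samples and 2.89 (standard error 0.97, limma adjusted p = 0.965) without the undetected sample, where the 2-sided exact permutation p was 0.2. By raw Ct the subsets overlapped without that sample too, and the difference was 1.01. The sign of miR-301a and miR-301b thus changes with the treatment of a sample in which neither gave a signal, and with all samples it also turns positive when the card median replaces U6 (0.99 and 1.32).

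**Figure D1:**
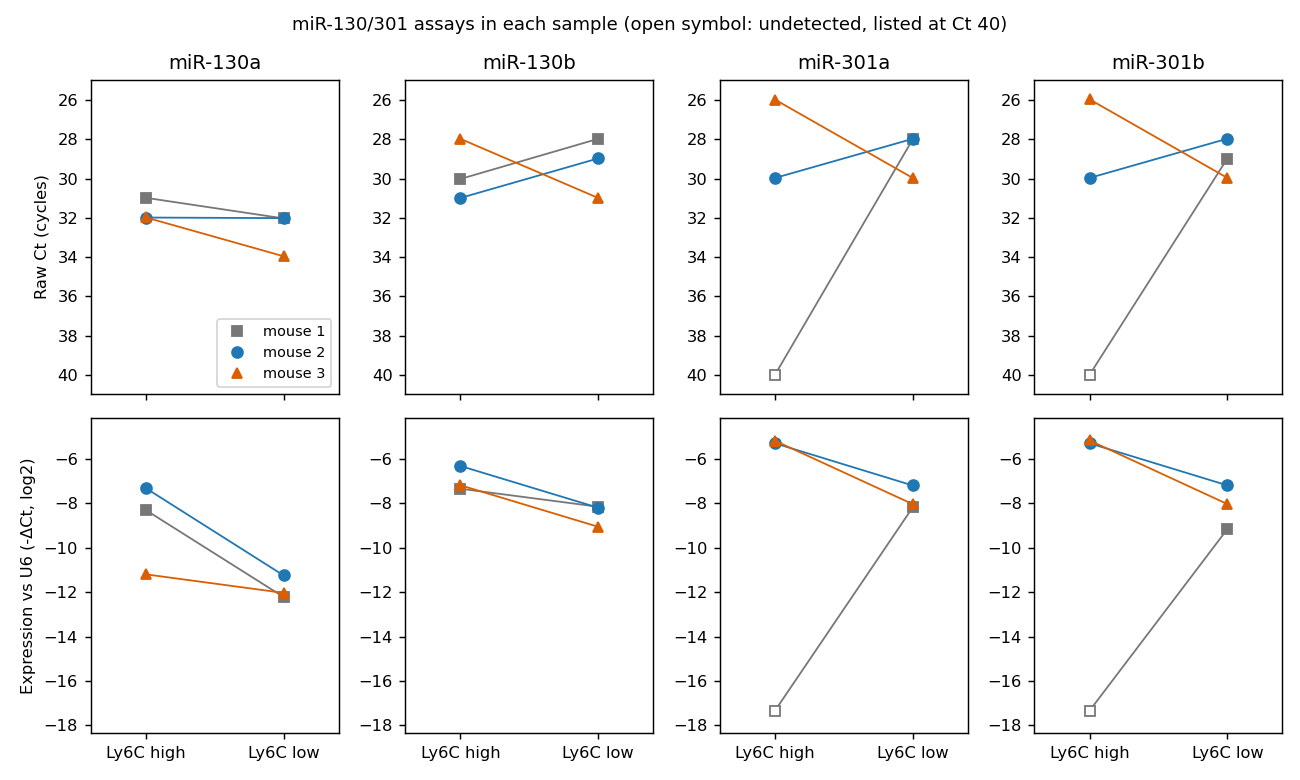
Raw Ct (upper row, cycles, axis inverted so that more template is higher) and expression relative to U6 (lower row, −ΔCt, log2) of the 4 members in each sample, with lines joining the samples of a mouse and open symbols for undetected reactions at Ct 40. Relative to U6, the lines of mice 2 and 3 fall from Ly6C high to Ly6C low for all members, whereas by raw Ct those of miR-130b, miR-301a and miR-301b rise in mouse 2 and fall in mouse 3.

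The within-mouse differences were compared with those of all card A miRNA assays detected in both samples of a mouse. In mouse 2, the differences (Ly6C high minus Ly6C low, log2, relative to U6) were 3.92 for miR-130a, 1.88 for miR-130b, 1.90 for miR-301a and 1.89 for miR-301b, and the median of 110 assays was 0.89. The value of miR-130a was the largest of the 110, and the next, that of miR-497, a name taken after the values were seen, was 2.93. The other members were about 1 cycle above the median, where 37 of the 110 assays (33.6%) were as high or higher, counting values within 0.1 and the members themselves.

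In mouse 3, the differences were 0.83 for miR-130a, 1.87 for miR-130b, 2.85 for miR-301a and 2.86 for miR-301b, with a median of 0.83 over 112 assays. miR-301b and miR-301a had the largest differences of the 112 assays, and the next was miR-744, also named after the values were seen, at 1.89. miR-130a was at the median in this mouse, so the member that stood highest in mouse 2 was not raised above the other assays in mouse 3.

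In mouse 1, where the Ly6C high sample deviates, miR-130a differed by 3.91 and miR-130b by 0.81, against a median of 0.86 over the 51 assays detected in both samples. Of these 51, 16 were as high as miR-130a or higher, counting values within 0.1 and miR-130a itself. The values of miR-301a and miR-301b, −9.15 and −8.17, depend on the listed Ct of 40 and give no size.

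**Figure D2:**
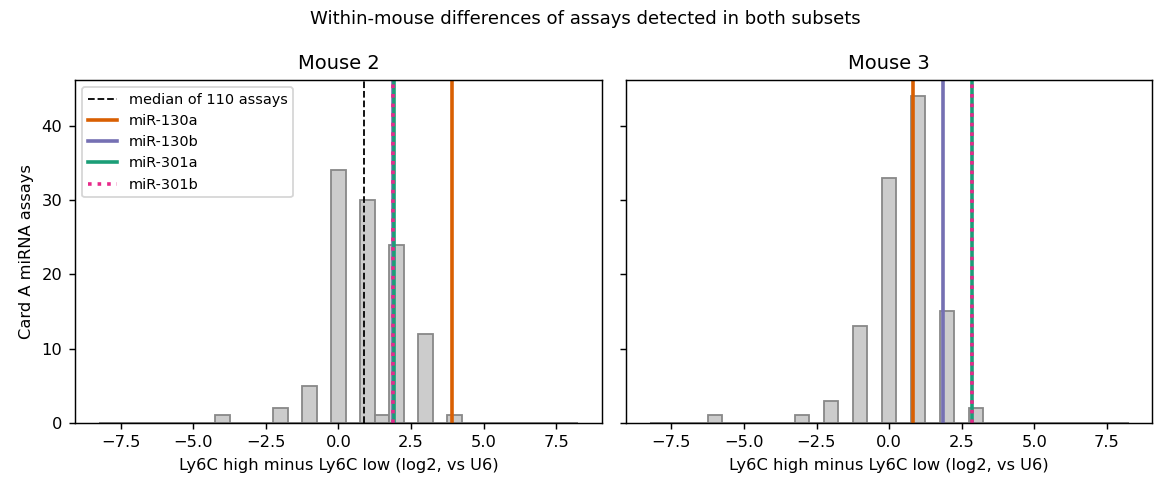
Histograms of the within-mouse difference (Ly6C high minus Ly6C low, log2, relative to U6; bins of 0.5) of card A miRNA assays detected in both samples of mouse 2 (110 assays) and mouse 3 (112 assays), with coloured lines for the family members and a dashed line for the median. miR-130a lies farthest to the right in mouse 2 (3.92) and miR-301a and miR-301b in mouse 3 (2.85 and 2.86), while without normalization the mouse 2 differences of miR-130b, miR-301a and miR-301b are negative.

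The choice of U6 as reference sets the sign of several of these differences. U6 on card A had a Ct of 24.66 in the Ly6C high and 20.76 in the Ly6C low sample of mouse 2, and of 20.77 and 21.92 in mouse 3. Before U6 was subtracted, miR-130b differed by −2.02, miR-301a by −2.00 and miR-301b by −2.00 in mouse 2, and by 3.01, 4.00 and 4.01 in mouse 3. By raw Ct, then, these 3 members were lower in Ly6C high monocytes of mouse 2 and higher in those of mouse 3. miR-130a differed by 0.030 and 1.98. Of the other control RNAs on card A, 4 were detected in both samples of mouse 2, and all were later in the Ly6C high sample, with Ct values of 25.96 against 21.98 for snoRNA135, 22.97 against 18.99 for snoRNA202 and 28.97 against 24.99 for U87, but 29.95 against 27.99 for Y1. The first 3 were later by about as much as U6, whereas Y1 was later by about as much as miR-130b, miR-301a and miR-301b, so that relative to Y1 these 3 members were nearly level between the subsets in mouse 2. In mouse 3 none of the 4 was detected in either sample. In mouse 1 only snoRNA202 was detected in both, with a Ct of 31.92 in the Ly6C high and 30.96 in the Ly6C low sample, against 22.66 and 19.80 for U6. miR-130b differed by −2.05 by raw Ct in mouse 1, so that relative to snoRNA202 it was lower in the Ly6C high sample, whereas relative to U6 it was higher.

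All members are on card A, and normalization to U6, to the card median or to the card mean moves all assays of a card in a sample alike. The distance of a member to the median difference of the 127 tested card A assays is therefore fixed by construction under these normalizations and without any, and only quantile normalization can change it. Without Ly6C high mouse 1, miR-130a lay 1.68, miR-130b 0.82, miR-301a 1.67 and miR-301b 2.00 above that median, and after quantile normalization 2.71, 0.16, 1.28 and 1.78. The distance of miR-130b was thus small after quantile normalization. With all 6 samples, miR-130a lay 4.03 and miR-130b 2.66 above the card A median, miR-301a lay −0.33 relative to it, and miR-301b was itself the median assay.

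**Figure D3:**
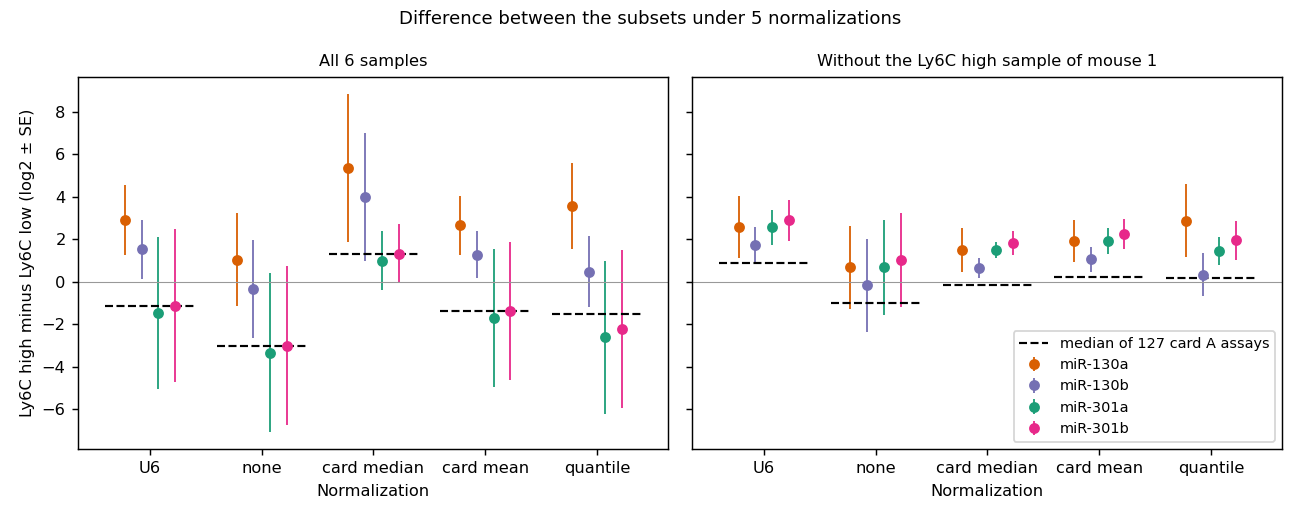
Difference between the subsets (Ly6C high minus Ly6C low, log2; points, with bars of 1 standard error from limma) of each member under 5 normalizations, with all 6 samples and without Ly6C high mouse 1; dashed lines are the median of the 127 tested card A assays, whose distance to each point can change only with quantile normalization. In the right panel the members lie above the dashed line (miR-130b by 0.16 after quantile normalization), and miR-130b is below 0 without normalization (−0.17), while in the left panel miR-301a and miR-301b are above 0 only with the card median (0.99 and 1.32) and miR-130b is below 0 without normalization (−0.35).

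Of the 201 tested assays, 0 (0%) had a limma adjusted p of 0.05 or less, and so 0 of the 4 members did. At an unadjusted p under 0.05 limma counted 2 assays, 0 of them members, and an ordinary linear model 4, of which 1 was a member, miR-130b. In limma 0 of the 201 (0%) had such a p and were higher in Ly6C high monocytes. The Ly6C high values lay above all Ly6C low values for 2 of the 4 members, miR-130a and miR-130b, and for 2.99% of the tested assays. These counts are relative to U6. Without Ly6C high mouse 1 this held for 4 of 4 members and for 14.9% of the assays. By raw Ct, with or without that sample, it did not hold for miR-130b, miR-301a or miR-301b. For miR-130a the raw values were separated by only 0.030 cycles, far less than a step of 1 cycle, so the nearest values were level. The share of all tested assays was not counted by raw Ct, so this has no background beside it.

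Relative to U6, 2 of 4 members were higher in the Ly6C high sample of every mouse, as were 10.6% of the 142 assays with a signal in each mouse. In mice 2 and 3 alone it was higher in both for 4 of 4 members and for 38.5% of 148 assays. By raw Ct miR-130a was higher in mouse 3 (1.98) and level in mouse 2 (0.030), whereas miR-130b, miR-301a and miR-301b were lower in mouse 2. For this comparison, too, the share of all assays was not counted by raw Ct. Without Ly6C high mouse 1, 2 of the 4 members, miR-301a and miR-301b, had an unadjusted limma p under 0.05 and were higher, against 3 of the 201 assays (1.49%). The remaining assay was miR-365, named after its value was seen. On the same samples 2 of 4 members had such a p with the median per card and with the mean per card. There 22 and 10 of the 201 assays had one in either direction. Without normalization and after quantile normalization 0 of 4 members had one, as did 2 and 4 of the 201 assays. When both samples of mouse 1 were left out, 0 of 4 members and 1 of the 201 assays had such a p without a block for the mouse. With the block it was 3 of 4 members and 16 of the 201 assays. The median difference of the members was 0.19 with all samples and 2.57 without that sample, beside −0.45 and 0.63 for all tested assays and −1.14 and 0.89 for those of card A. The 4 assays share sequence and, for miR-130b and miR-301b, a locus, so they do not count as 4 independent cases.

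The members were ordered by their mean expression within a subset. In Ly6C low monocytes miR-301a was at −7.81 ± 0.53, miR-301b at −8.14 ± 0.99, miR-130b at −8.48 ± 0.51 and miR-130a at −11.84 ± 0.52 (log2 relative to U6, SD, n = 3). The neighbours among the upper members differed by less than their spread, whereas miR-130a was below the others by more than it. In the Ly6C high samples from mice 2 and 3 the means were −5.25 ± 0.09 for miR-301b, −5.25 ± 0.08 for miR-301a, −6.76 ± 0.61 for miR-130b and −9.27 ± 2.74 for miR-130a (SD, n = 2). Efficiency can differ between assays, so this is an order of signals rather than of molecule numbers.

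U6 cancels in the difference between members of the same sample. miR-301a minus miR-301b was −0.0017 and −0.013 in the Ly6C high samples from mice 2 and 3 and 0.98, −0.0056 and −0.0040 in the Ly6C low samples. The 2 assays thus gave values at most 0.013 apart in 4 samples and a step of 1 cycle apart in the Ly6C low sample of mouse 1, and both were undetected in the remaining sample. Whether these 2 assays tell miR-301a from miR-301b was not tested, so their agreement does not count as 2 independent measurements. miR-130b minus miR-301a was −1.02 and −2.00 in the Ly6C high samples from mice 2 and 3 and 0.026, −1.00 and −1.02 in the Ly6C low samples. miR-130b was therefore below miR-301a in 4 of these 5 samples and level with it in the Ly6C low sample of mouse 1.

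miR-130a minus miR-130b was −0.96, −1.00 and −4.01 in the Ly6C high and −4.06, −3.04 and −2.97 in the Ly6C low samples. miR-130a was thus about 1 cycle weaker than miR-130b in the Ly6C high samples from mice 1 and 2 and about 3 to 4 cycles weaker in the other 4. The subset means of this difference were −1.99 ± 1.75 and −3.36 ± 0.61 (SD, n = 3), and the values overlapped (2-sided exact permutation test, p = 0.3). The difference between the subsets was 1.37 with all samples and 0.86 without Ly6C high mouse 1 (exact permutation p = 0.6). For miR-130a minus miR-301a it was 4.36 with all samples, a value set by the undetected reaction, and 0.011 without that sample. With all samples, in none of the 6 pairs of members did the within-sample difference separate the subsets, with adjusted exact permutation p-values of 0.9 to 1 over the 6 pairs, both with and without Ly6C high mouse 1. Without that sample, miR-130b minus miR-301a gave an unadjusted exact permutation p of 0.2. Its values were level in Ly6C high mouse 2 (−1.0189) and Ly6C low mouse 3 (−1.0186). Only Ly6C high mouse 3 (−2.00) was lower by about a step of 1 cycle.

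The rank of each member among the detected assays of its card does not depend on a reference, with rank 1 the strongest signal. miR-130a ranked 81 of 112 and 104 of 129 in the Ly6C high samples from mice 2 and 3, and 110 of 127, 127 of 146 and 108 of 115 in the Ly6C low samples of mice 1, 2 and 3. miR-301a ranked 56 of 112 and 48 of 129 in those Ly6C high samples, and 68 of 127, 68 of 146 and 66 of 115 in the Ly6C low samples. miR-130a was thus near the end of the detected assays in Ly6C low monocytes and miR-301a near the middle.

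The assays whose pattern was most like that of a member were sought among the card A assays detected in all 6 samples, by the root mean square difference of expression centred over the samples. miR-301a and miR-301b were undetected in 1 sample and were not compared. For miR-130b the closest of 39 assays were let-7d (0.46), miR-331-3p (0.67) and miR-200c (0.68), against a median of 1.25. For miR-130a they were miR-192 (1.10), miR-10a (1.11) and miR-181a (1.12), against a median of 1.90. Without Ly6C high mouse 1 the closest of the same 39 were miR-15b (0.40), miR-148a (0.40) and miR-331-3p (0.48) for miR-130b, against a median of 0.76, and miR-203 (0.82), miR-15b (0.97) and miR-148a (0.99) for miR-130a, against a median of 1.37. Of these, miR-331-3p alone was among the closest in both searches, and in neither search were miR-130a and miR-130b among the 3 assays closest to each other.

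Other assays with the seed, or with most of its bases at a shifted position, were taken from lists. miR-721, which carries the family seed, was detected in 2 of the 6 samples and was not tested. Its Ct was 28.97 in the Ly6C high and 25.00 in the Ly6C low sample of mouse 2, and 36.04 to 40 in the other 4. Relative to U6 the order turned, with −4.11 in the Ly6C high and −4.97 in the Ly6C low sample of mouse 2. Signal under 35 cycles was thus seen in mouse 2 alone. miR-130b#, the only opposite-strand assay of the family on the cards, was undetected in all 6 samples. It is on card B, as is miR-721, and the sample labels name only the rodent pool A primers. What a lack of signal on that card means was not tested.

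In assays with a shifted seed, most bases of the family seed lie at another position. Capitals mark the run in common with the family, CAGUGCA or GUGCAA, in these sequences of the same source.
miR-148a-3p: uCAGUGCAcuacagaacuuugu
miR-19b-3p: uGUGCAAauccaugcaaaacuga
This list held miR-148a, miR-148b, miR-152, miR-19a and miR-19b, all 5 tested and 0 of 5 past the threshold. With all samples 3 of 5 had a positive difference (median 0.20), and 5 of 5 were higher, by a median of 1.05, without Ly6C high mouse 1. Without that sample the differences ran from 0.88 for miR-19a to 2.06 for miR-148a, beside 1.72 to 2.89 for the 4 family members.

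Markers of other cells were read beside the family. Differences come in steps near 1 cycle, so here and below a marker close to a member shares its step with many other assays. In mouse 2, 37 of the 110 card A assays were as high as miR-130b or higher, and in mouse 3, 17 of the 112. Such closeness therefore does not tie a marker to the family. Of 2 endothelial assays, miR-126-3p and miR-126-5p, 1 was tested, and miR-126-3p, with the stronger signal, differed by 1.90 in mouse 2 and 1.84 in mouse 3 relative to U6, close to miR-130b in both mice. Their summed expression was −16.34, −6.24 and −8.21 in the Ly6C high samples from mice 1, 2 and 3 and −9.17, −8.14 and −10.04 in the Ly6C low samples. Neither was detected in Ly6C high mouse 1, so the sum there depends on the listed Ct of 40 and gives no size. miR-126-5p was detected in 1 of the 6 samples. The part of such cells in the values of the family was not tested.

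Of 3 erythroid and platelet assays, only miR-451 was detected in any sample, with summed values of −15.29, −8.29 and −11.18 in the Ly6C high and −11.13, −10.20 and −11.03 in the Ly6C low samples. miR-451 was undetected in Ly6C high mouse 1, so the sum there depends on the listed Ct of 40 and gives no size. miR-451 differed by 1.89 in mouse 2, as did miR-301b, but by −0.13 in mouse 3, where miR-301b differed by 2.86. miR-144 and miR-486 were undetected in all 6 samples.

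Of 3 lymphocyte assays, miR-150, miR-181a and miR-155, all were tested and 0 passed the threshold. Their summed expression was −2.28, 0.77 and −3.20 in the Ly6C high and −1.07, −0.12 and −1.88 in the Ly6C low samples, and miR-150 gave the strongest signal in the Ly6C low samples and in Ly6C high mouse 2, was level with miR-181a in Ly6C high mouse 3 and was below it in Ly6C high mouse 1. Relative to U6, miR-150, miR-181a and miR-155 differed by 0.88, 0.87 and 1.89 in mouse 2 and by −2.14, 0.83 and −1.17 in mouse 3. In mouse 2 miR-150 and miR-181a were thus at the median of card A (0.89), and miR-155 was as far above it as miR-301a and miR-301b. In mouse 3 miR-181a was at the median (0.83), and the other 2 were below it. Among 6 assays for miRNAs not usually found in blood cells (miR-122, miR-124, miR-1, miR-133a, miR-375 and miR-200c), 4 were tested and 0 passed, and their summed expression was −5.72, −5.11 and −7.08 in the Ly6C high and −7.15, −6.14 and −7.85 in the Ly6C low samples. Relative to U6, all 4 had a positive difference without Ly6C high mouse 1, but miR-122 and miR-124 were each detected in only 3 of the 6 samples, so that their differences depend on the listed Ct of 40 and give no size. miR-375, a pancreatic miRNA, differed by 1.89 in mouse 2, close to miR-130b, and was not detected in the Ly6C low sample of mouse 3. miR-122, a liver miRNA, had a Ct of 28.98 in Ly6C high mouse 1, and miR-200c, an epithelial miRNA, was detected in all 6 samples. Their part in the values of the family was not tested either.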

How the data were processed

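The authors' deposited raw Ct and ΔCt values were used, both log2 quantities that decrease as template increases. The authors obtained ΔCt by subtracting U6 of the same sample and card. A deposited table of the authors' own within-mouse ratios was not used. How Ct thresholds were set and with which software is not given in the sources used here.

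The 18 control wells were left out, and 201 of 750 assays, those under 35 cycles in 3 or more samples, were tested on −ΔCt with limma 3.58.1 (lmFit, eBayes; R 4.3.3). The reported fit has no term for the mouse, and p-values are adjusted after Benjamini and Hochberg. Undetected reactions kept their value. Exact permutation tests were made with scipy 1.17.1, tables with pandas 2.3.3 and numpy 2.4.6, and plots with matplotlib 3.10.9, in Python 3.11.15. The limma steps were tested on simulated data.

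The members and lists were chosen with earlier results of these data known. Named assays are the 4 members, assays with the same seed, opposite strands, a shifted seed, markers of myeloid and other cells, control RNAs and, per member detected in all samples, the 3 assays closest in pattern. The labels state that samples with the same number come from the same mouse. Deviations from the subset means correlated between them at 0.32, 0.62 and 0.72 in mice 1, 2 and 3 over 201 assays, and at −0.09, 0.41 and 0.41 on card A.

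Alternatives were 4 other normalizations, 3 filters, a floor of 35 cycles, undetected reactions or card A of Ly6C high mouse 1 as missing, 2 other models, the mouse as a block, and samples or mice left out. The normalizations without that sample were chosen after seeing the data.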

Additional observations from a re-analysis of the deposited data

Results flagged for a closer look

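miR-721, which has the family seed but is measured on card B and was not tested, gave a signal in data that the comparison of the subsets does not use. The sample labels name only the rodent pool A primers, and they do not state which primers were used for card B. Its Ct was 28.97 in the Ly6C high and 25.00 in the Ly6C low sample of mouse 2, against 36.04 to 40 in the samples of mice 1 and 3. Relative to U6 this is −4.11 in the Ly6C high and −4.97 in the Ly6C low sample, so the order of the subsets turns with the scale. On card B the samples of mouse 2 had 104 and 148 detected miRNA assays, and the other 4 had 31 to 80. The plant control of card B, an assay for an Arabidopsis miRNA absent from mice, read 33.97 cycles in Ly6C low mouse 2 and 40 in the other 5 samples. The part of either in the miR-721 signal was not tested.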

How the results depend on the processing

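The number of assays past the threshold was 0 in limma under all 27 alternatives, and the count at an unadjusted p under 0.05 went from 0 to 22, against 2 in the reported fit. An ordinary linear model counted 4, and the fit with undetected reactions as missing 9. miR-130a was positive under all 27, from 0.69 to 5.35. Without normalization miR-130b became −0.35, and −0.17 when Ly6C high mouse 1 was also left out, as the median of all assays moved from −0.45 to −2.32 and from 0.63 to −1.17.

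miR-301a and miR-301b turned positive in 11 of 26 alternatives each. The values were 0.99 and 1.32 with the median per card, 0.20 and 0.53 with a floor of 35 cycles, and 2.56 and 2.89 with undetected reactions or card A of Ly6C high mouse 1 as missing. Without that sample, in settings chosen after seeing the data, they were 0.67 and 1.01 without normalization, 1.49 and 1.82 with the median per card, 1.90 and 2.24 with the mean per card, and 1.44 and 1.94 after quantile normalization. With samples or mice left out, they ranged from −3.63 to 2.56 and from −3.18 to 2.89. With a Ct under 35 required in all 6 samples, neither passed the filter and neither was fitted.

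With the mouse as a replicate block, the paired fit changed no call and gave standard errors of 1.36, 1.17, 2.98 and 2.77 for miR-130a, miR-130b, miR-301a and miR-301b (adjusted p 0.949 to 0.953). The block without mouse 1 gave differences of 2.38, 1.87, 2.37 and 2.38 with standard errors of 1.22, 0.22, 0.43 and 0.43. There 16 of the 201 assays, 3 of 4 members among them, had an unadjusted p under 0.05, against 1 of 201 and 0 of 4 in the fit of the same samples without the block. The lowest adjusted p with that block was 0.443.

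For the within-sample differences, leaving undetected reactions or that card out gave −0.32 for miR-130a over miR-301b, −0.85 for miR-130b over miR-301a and −1.18 for miR-130b over miR-301b. With samples or mice left out, the ranges in the same order were −0.32 to 7.20, −0.85 to 5.15 and −1.18 to 4.82, and −0.50 to 4.82e-05 for miR-301a over miR-301b and 0.51 to 2.57 for miR-130a over miR-130b. The number of arrays, the steps of 1 cycle and reactions without signal limit the precision.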
